A study of Mus musculus with 36 samples.

Results

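The miR-99/100 and miR-125 families were followed through 36 small RNA libraries of neonatal mouse kidney. The 6 miRNAs described, mmu-miR-99a-5p, mmu-miR-99b-5p, mmu-miR-99b-3p, mmu-miR-100-5p, mmu-miR-125a-5p and mmu-miR-125b-5p (mmu for mouse, left out from here on), were taken by their mature names from a count table of 1915 mature miRNAs, and each of the 6 was found. The libraries came from whole kidneys of mice on the C57BL/6 background that carry 2 genotypes used as models of autosomal dominant polycystic kidney disease (ADPKD). Floxed mice without Cre, Pkd1f/f or Pkd2f/f, are called WT, and Pkd1f/f:HoxB7-Cre or Pkd2f/f:HoxB7-Cre mice are called KO, so WT and KO of a model share the floxed alleles and differ by the Cre transgene. The ages sampled were postnatal day 1 (P1), day 3 (P3) and day 7 (P7), and each of the 12 combinations of model, age and genotype had 3 libraries. HoxB7-Cre acts in the ureteric bud and its collecting duct descendants, so the other cells of a KO kidney keep the gene. The labels do not say whether the 3 libraries of a group came from separate animals, so the p-values measure the spread between these libraries, which may in part be technical.

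A miRNA is cut from a hairpin precursor. The strand from the 5′ side (5p) or the 3′ side (3p) of the hairpin can be loaded into an Argonaute protein, and bases 2 to 8 of the loaded strand, the seed, pair with target messenger RNAs. The miR-99/100 family is best known for repressing Mtor, the growth kinase, and the miR-125 family is the vertebrate counterpart of lin-4, the first miRNA described in worms. Hairpins of the 2 families lie next to let-7 hairpins, an arrangement kept across animals, and all 3 families are known for their part in developmental timing and differentiation.

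The mature sequences, as RefSeq gives them on GRCm38.p6, are shown first because the seeds define the families and because some members are close enough for reads to be hard to assign. Capitals mark the seed.
mmu-miR-99a-5p: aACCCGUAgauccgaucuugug
mmu-miR-99b-5p: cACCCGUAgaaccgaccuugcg
mmu-miR-100-5p: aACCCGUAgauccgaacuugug
mmu-miR-99b-3p: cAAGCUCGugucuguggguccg
mmu-miR-125a-5p: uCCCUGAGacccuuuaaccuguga
mmu-miR-125b-5p: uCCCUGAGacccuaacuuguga
The 3 miRNAs miR-99a-5p, miR-99b-5p and miR-100-5p were the only ones with the seed ACCCGUA among 1623 mature mouse sequences compared. The seed of miR-125a-5p and miR-125b-5p was found in 5 sequences, the others being miR-351-5p, miR-6367 and miR-6394. miR-99b-3p, the opposite strand of the miR-99b-5p hairpin, shared its seed with miR-99a-3p alone. Counted from 1 at the 5′ end, miR-100-5p differs from miR-99a-5p by the substitution U16A (the base of miR-99a-5p first), with 21 of 22 bases identical. A sequencing error or an edited base can move a read between them, so the split of reads between miR-99a-5p and miR-100-5p is uncertain. miR-99b-5p differs from miR-99a-5p by A1C, U11A, U16C and U21C.

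The hairpins lie in 3 places, all on the plus strand of GRCm38. Mir99a, Mirlet7c-1 and Mir125b-2 span chr16:77598936-77646343 within introns of Mir99ahg, a noncoding host gene. Mir100, Mirlet7a-2 and Mir125b-1 span chr9:41531425-41582002 within introns of 3110039I08Rik and Gm49317. Mir99b, Mirlet7e and Mir125a are packed into 692 bases at chr17:17830188-17830879, with Mir99b and Mirlet7e in an intron and Mir125a in an exon of Spaca6. miR-125b-5p is made by both Mir125b hairpins with the same sequence, was listed under each with nearly the same reads (534774 and 529147 over all libraries), and cannot be assigned to a place. The opposite strands of the 2 hairpins, miR-125b-1-3p and miR-125b-2-3p, differ in sequence and can.
miR-125b-1-3p: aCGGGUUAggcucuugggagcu
miR-125b-2-3p: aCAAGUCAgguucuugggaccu

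The libraries held 12569939 to 32663566 miRNA reads, of which the 6 miRNAs took 0.364 to 1.56% (median 0.815%). The pair miR-10a-5p and miR-10b-5p took 31.4 to 81.0%, and the scaling factors that trimmed mean of M values (TMM) normalization gave to offset such differences ran from 0.393 to 2.13. The 95% Wilson interval of a share, which covers counting error only, was at most 0.0235 percentage points to either side for miR-10 and narrower for the 6. Levels are given as normalised counts per 1000000 reads (CPM), scaled within a model, so that levels are compared between ages and genotypes of a model but not between models. The smallest count behind any value was 183 reads, for miR-99b-3p, for which counting alone gives an error of 7.39%. The targeted messenger RNAs were not measured in these libraries, so the genotype labels could not be checked. The 4 miRNAs of the kidney tubule list (miR-192-5p, miR-194-5p, miR-204-5p and miR-30a-5p) summed to 31516 to 99180 CPM in a library. The single liver marker, miR-122-5p, was at 0.0532 to 341 CPM. Both lists had reads in every group, so the presence of reads alone does not mark the tissue.

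The 6 miRNAs kept nearly the same order of level in each library. miR-99b-5p was the highest of the 6 in 34 of 36 libraries and miR-125a-5p in the other 2. miR-125b-5p took place 3 in all 36 and miR-99b-3p was last in all 36. Places 4 and 5 were shared by miR-100-5p, at place 4 in 20 libraries, and miR-99a-5p, at place 4 in 16. By mean CPM miR-99b-5p stood at place 19 of all miRNAs in the Pkd1 model and at place 28 in the Pkd2 one, miR-125a-5p at 37 and 38, and miR-99b-3p at 195 and 216. The 2 strands of the miR-99b hairpin were thus far apart in level, and the 2 products of the 692-base cluster that belong to the families, miR-99b-5p and miR-125a-5p, were the most abundant.

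**Figure D1:**
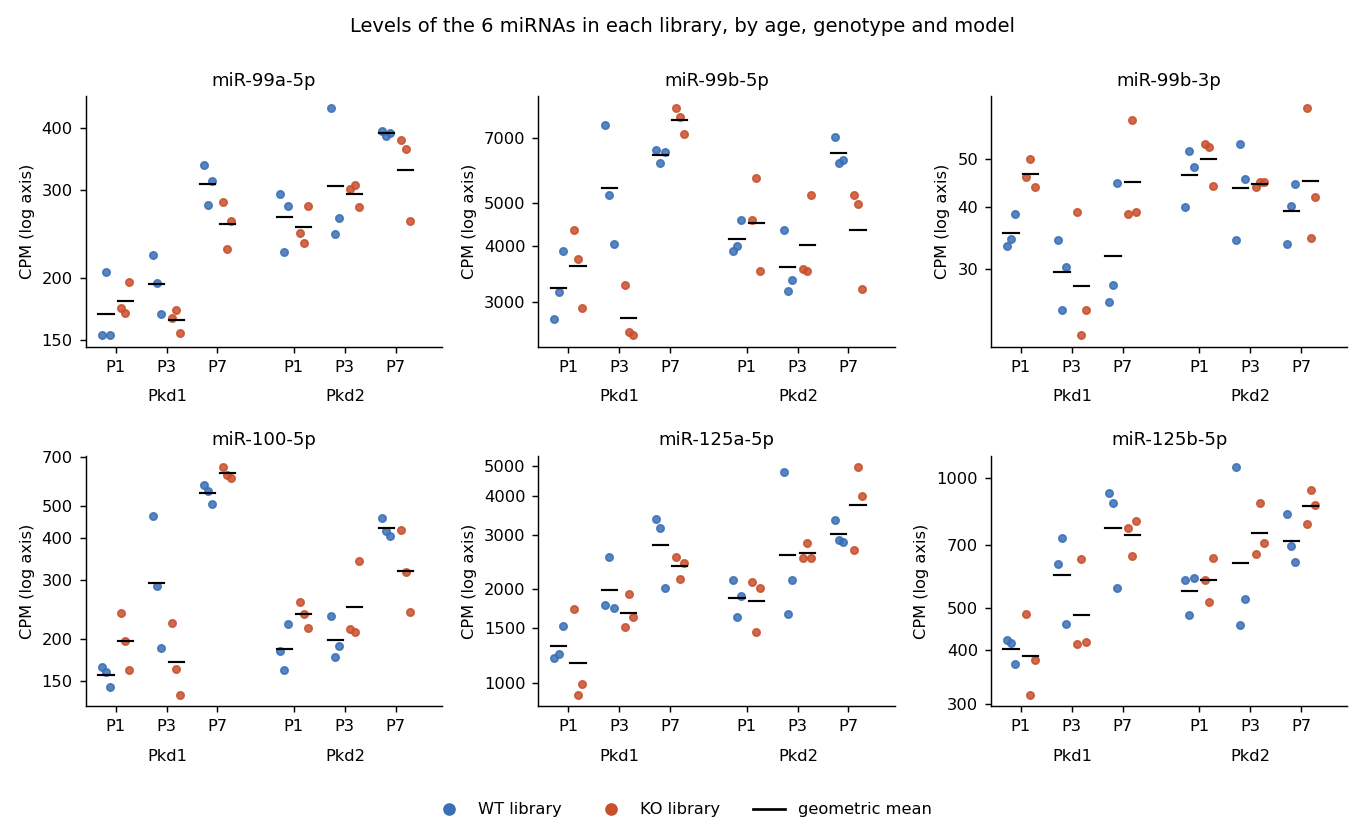
Each point is the level of 1 miRNA in 1 library (CPM, log axis), with WT in blue and KO in red, by age and model, and the line is the geometric mean of 3 libraries. miR-100-5p showed its lowest points at P1 and P3 and its highest at P7 in both models, while miR-99b-3p stayed between 22.1 and 63.3 CPM.

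The first comparison set WT at P7 against WT at P1 and so followed the maturing kidney without Cre. On the TMM scale all 5 miRNAs of the 5p arms were higher in every P7 library than in any P1 library of both lines, although 4 of them reversed in the Pkd2 line with library totals alone, and the change was largest for miR-100-5p, while miR-99b-3p moved little. In the Pkd1 line 5 of 6 passed an adjusted p of 0.05 (edgeR's quasi-likelihood test with Benjamini-Hochberg adjustment over 706 miRNAs), all higher, against 21.5% of all miRNAs tested. With library totals in place of TMM factors 0 of 6 passed in either line by edgeR (1 of 6 and 0 of 6 at an unadjusted p of 0.05), against 19.3% of all miRNAs in the Pkd1 line and 29.8% in the Pkd2 line. The Pkd2 line had 2 of 6 called, against 28.3% of 746 miRNAs, so that the share called there was close to that of all miRNAs. At an unadjusted p of 0.05 the counts were 5 of 6 against 36.3% and 4 of 6 against 39.8%. The libraries of P1 and P7 did not overlap for 5 of 6 in each line, against 33.1% of all miRNAs in the Pkd1 line and 49.9% in the Pkd2 line. The median change of the 6 was 0.96 on the log2 scale in the Pkd1 line and 0.59 in the Pkd2 line, beside −0.03 and −0.06 for all miRNAs tested.

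miR-100-5p, from the chromosome 9 cluster, held 165, 159.7 and 144 CPM in the 3 Pkd1-line WT libraries at P1 and 579.9, 553 and 506 CPM at P7. The Pkd2 line had 184, 161 and 222 CPM at P1 and 461, 422 and 407 CPM at P7. Each P7 library was thus above every P1 library of its line on the TMM scale. The log2 fold change was 1.81 ± 0.27 (SE, n = 3 and 3), a 3.5-fold rise with edgeR adjusted p = 0.000425, in the Pkd1 line and 1.19 ± 0.23, a 2.28-fold rise with edgeR adjusted p = 0.00123, in the Pkd2 line. With library totals alone the change was smaller and not called in either line, at 1.11 (edgeR adjusted p = 0.109) and 0.45 (edgeR adjusted p = 0.401). At P3 the 3 WT libraries of the Pkd1 line lay apart from each other, at 468, 288 and 188 CPM, whereas those of the Pkd2 line, at 234, 176 and 191 CPM, overlapped P1.

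miR-99a-5p, which has the same seed, went from 153, 206 and 154 CPM to 337, 281 and 313 CPM in the Pkd1 line. It went from 295, 226 and 279 CPM to 395, 386 and 392 CPM in the Pkd2 line. The libraries did not overlap in either line, but the change (log2 fold change 0.86 ± 0.16, edgeR adjusted p = 0.00251) passed in the Pkd1 line only, with 0.55 ± 0.21 and adjusted p = 0.0568 in the Pkd2 line. The difference between the lines was itself within its error, at 0.14 ± 0.25, in a fit of all 36 libraries scaled together. The scaling differs from that of the fits by line, so this value is not the gap between 0.86 and 0.55.

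miR-99b-5p, the remaining miRNA with that seed, held 2753, 3159.7 and 3902 CPM at P1 and 6555, 6129 and 6490.3 CPM at P7 in the Pkd1 line. Its levels in the Pkd2 line were 3908, 4016 and 4585 CPM at P1 and 7025, 6157 and 6234 CPM at P7. The rise was 1.95-fold (log2 fold change 0.97 ± 0.21, edgeR adjusted p = 0.00632) and 1.55-fold (0.63 ± 0.22, edgeR adjusted p = 0.0413). In the Pkd2 line the call was lost when any of the 6 libraries was left out, with log2 fold changes of 0.59 to 0.71 and adjusted p of 0.0542 to 0.117. The P3 levels of WT differed by line: 7480.2, 5213 and 4061 CPM in the Pkd1 line, all above P1 and the highest of them above P7, and 4351, 3186 and 3372 CPM in the Pkd2 line, within or below those at P1.

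miR-99b-3p comes from the same hairpin and did not follow miR-99b-5p. Its WT levels in the Pkd1 line were 33.4, 34.5 and 38.8 CPM at P1 and 25.8, 27.9 and 44.8 CPM at P7. Those of the Pkd2 line were 40, 51.8 and 48.2 CPM at P1 and 33.6, 40.2 and 44.5 CPM at P7. The libraries overlapped in both lines, and the log2 fold changes, −0.11 ± 0.26 and −0.24 ± 0.22, missed the threshold by edgeR (adjusted p = 0.797 and 0.457).

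miR-125a-5p, from the same cluster as miR-99b, held 1200.1, 1242 and 1522 CPM at P1 and 3357, 3151 and 2026 CPM at P7 in the Pkd1 line (log2 fold change 1.11 ± 0.25, edgeR adjusted p = 0.00696). For the Pkd2 line the values were 2139.5, 1626 and 1906 CPM at P1 and 3341, 2890.2 and 2834 CPM at P7 (0.68 ± 0.31, edgeR adjusted p = 0.116). The groups were apart in both lines. miR-125b-5p went from 422, 416 and 372 CPM to 923, 875 and 557 CPM in the Pkd1 line (0.96 ± 0.24, edgeR adjusted p = 0.0141). Without Pkd1_P7_WT replicate 1 this call was lost, with a log2 fold change of 0.83 and adjusted p = 0.0587. For the Pkd2 line miR-125b-5p went from 583, 482 and 587 CPM to 826, 696 and 642 CPM (0.39 ± 0.25, edgeR adjusted p = 0.257).

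No difference in this change between the lines was called for the 6 miRNAs, and 0 of 6 passed even an unadjusted p of 0.05, against 0.258% of 775 miRNAs by adjusted p and 7.1% by unadjusted p. The largest difference was that of miR-100-5p, 0.45 ± 0.35 on the log2 scale. These differences came from the fit of all 36 libraries with its own TMM factors, where the median over all miRNAs was −0.15. They lie below the gaps between the changes given above for each line. The size of these changes depends on the scaling in both lines, and in the Pkd2 line the direction of 4 of 6 does too. With library totals in place of TMM factors the median of all miRNAs moved from −0.03 to −0.68 in the Pkd1 line and from −0.06 to −0.78 in the Pkd2 line. On that scale the changes of miR-99a-5p, miR-99b-5p, miR-125a-5p and miR-125b-5p in the Pkd2 line were −0.16, −0.10, −0.052 and −0.35, below 0 but above the median of all miRNAs.

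**Figure D2:**
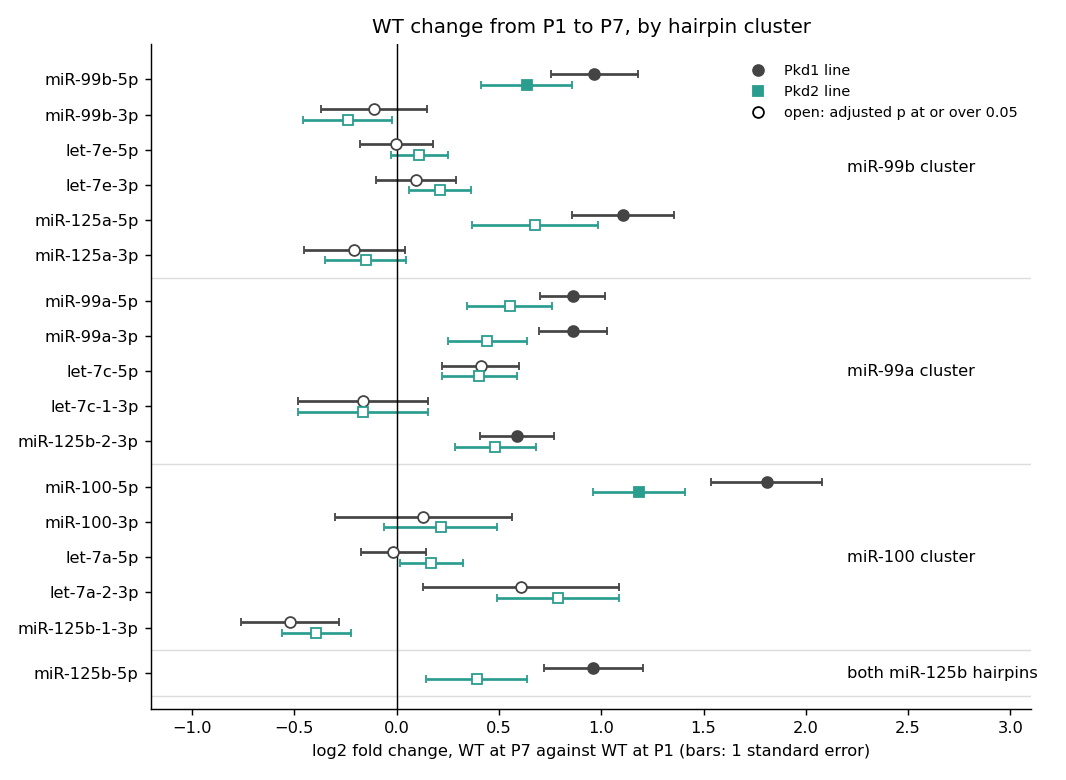
The log2 fold change of WT at P7 against WT at P1 is plotted for each mature product of the 3 clusters with bars of 1 SE, as dark circles for the Pkd1 line and green squares for the Pkd2 line, filled where the adjusted p was under 0.05. miR-100-5p lies farthest to the right, at 1.81 and 1.19, and the let-7 products between them are all open. In the Pkd2 line 4 of the 5p products fell below 0 when library totals replaced the TMM factors. The points of let-7a-5p and let-7c-5p use rows listed under hairpins outside the clusters that give the same sequences.

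Several other measures moved with age in the same libraries. Of the kidney tubule list 3 of 4 were called higher at P7 in the Pkd1 line and 4 of 4 in the Pkd2 line, and their summed level went from 37333 to 54266 CPM at P1 to 69906 to 83794 CPM at P7 in the first and from 47339 to 53222 CPM to 93483 to 98928 CPM in the second. Of the leukocyte list 4 of 4 and 1 of 4 were called higher, and of the muscle list 3 of 3 were called lower in the Pkd1 line, where the summed muscle level at P1 ran from 14.0 to 1146 CPM. Epithelial markers were called higher in 2 of 5 and 4 of 5, and endothelial in 1 of 2 in each line. The smooth muscle and stroma list had 1 of 5 higher in the Pkd1 line and 1 of 5 lower in the Pkd2 line. Its summed level was higher at P7 in both. In the Pkd1 line it ran from 26423 to 34560 CPM at P1 and from 42591 to 80885 CPM at P7. For the Pkd2 line the ranges were 43700 to 50469 CPM and 56741 to 89018 CPM. Of the erythroid list 1 of 3 was called higher in the Pkd1 line. The summed erythroid level there was not higher, at 2792 to 3725 CPM at P1 and 2561 to 3083 CPM at P7. The single liver marker was called lower in the Pkd2 line, and no adrenal, endocrine or neural marker was called by edgeR in either. Of all miRNAs 21.5% were called in the Pkd1 line and 28.3% in the Pkd2 line. The share of reads held by miR-10a-5p and miR-10b-5p ran from 62.9 to 75.1% at P1 and from 57.9 to 81.0% at P7 in the Pkd1 line, and from 44.3 to 49.7% and from 42.8 to 66.4% in the Pkd2 line. In bulk kidney a change in the number of cells of a type and a change in RNA per cell cannot be told apart, and the part of cell makeup in the change of the 6 miRNAs was not tested.

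The comparison within hairpins does not rest on the scaling between libraries. Ratios of read counts within a library were formed for 11 pairs, and WT at P7 was set against WT at P1 over both lines with an exact two-sided permutation test within the lines (400 arrangements, smallest possible p = 0.005). Of the 11 ratios 6 passed a Benjamini-Hochberg adjusted p of 0.05, each with no overlap of P1 and P7 libraries in either line, with p = 0.005, the smallest the exact permutation test allows, and adjusted p = 0.00917. They were the 5p to 3p ratios of the miR-99b, miR-100 and miR-125a hairpins, let-7e-5p to miR-99b-5p, miR-100-5p to miR-99a-5p, and the ratio of the opposite strands of the 2 miR-125b hairpins. A single ratio at this smallest p could not have passed the adjustment over 11 tests. The 6 are also not independent, since miR-99b-5p and miR-100-5p each enter a strand ratio and another ratio.

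The miR-99b-5p to miR-99b-3p ratio was 82.5, 91.6 and 101 in the Pkd1-line WT libraries at P1 and 254, 219.7 and 145 at P7. The Pkd2 line gave 97.8, 77.6 and 95.2 at P1 and 209, 153 and 140.0 at P7. As geometric means it went from 91.3 to 201 and from 89.7 to 165, a mean log2 difference of 1.01 over the lines, so that the 5p strand took a larger share of the hairpin's reads at P7. The miR-100 hairpin went the same way, from 157 to 508 and from 104 to 202 reads of 5p per read of 3p (mean log2 difference 1.33). Here miR-100-3p was rare, with 9 to 106 reads in a library, which limits the precision of each ratio. For miR-125a the ratio went from 143 to 348 and from 89.5 to 159 (mean log2 difference 1.05).

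The miR-99a hairpin differed from these. Its 5p to 3p ratio had a mean log2 difference of 0.06 (exact two-sided permutation p = 0.6), with both strands higher at P7: miR-99a-3p changed by 0.86 on the log2 scale in the Pkd1 line (edgeR adjusted p = 0.00302), as much as miR-99a-5p, and by 0.44 in the Pkd2 line (edgeR adjusted p = 0.0978). The opposite strands of miR-100-5p and miR-125a-5p were not called, with miR-100-3p at 0.13 and 0.22 and miR-125a-3p at −0.21 and −0.15. Of the 5 opposite strands outside the 6 miRNAs, 2 of 5 were called in the Pkd1 line, miR-99a-3p and miR-125b-2-3p, and 0 of 5 in the Pkd2 line by edgeR (3 of 5 in each line at an unadjusted p of 0.05).

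The opposite strands of the 2 hairpins that both give miR-125b-5p differ in sequence, so their reads could be compared. The strand ratios of some other hairpins changed with age, as given above, so an opposite strand need not follow the output of its hairpin. Whether these opposite strands do was not tested. The ratio of miR-125b-1-3p, from chromosome 9, to miR-125b-2-3p, from chromosome 16, was 1.31, 1.05 and 0.848 at P1 and 0.561, 0.697 and 0.311 at P7 in the Pkd1 line. The Pkd2-line ratios were 0.879, 1.07 and 0.873 at P1 and 0.584, 0.520 and 0.437 at P7. The geometric mean thus fell from 1.05 to 0.496 and from 0.936 to 0.510, with a mean log2 difference of −0.98. In the Pkd1 line miR-125b-1-3p changed by −0.52 (edgeR adjusted p = 0.132) and miR-125b-2-3p by 0.59 (edgeR adjusted p = 0.0315). They changed in the Pkd2 line by −0.39 (adjusted p = 0.0954 by edgeR) and 0.48 (adjusted p = 0.0815 by edgeR). The reads of miR-125b-5p cannot be divided between the hairpins.

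The let-7 hairpins of the clusters gave a different picture from the 5p strands beside them. Of the 6 let-7 products, let-7e-5p and let-7e-3p, let-7c-5p and let-7c-1-3p, and let-7a-5p and let-7a-2-3p, 0 of 6 were called in either line by edgeR (1 of 6 and 2 of 6 at an unadjusted p of 0.05). Of these, let-7a-5p and let-7c-5p are also made by a hairpin elsewhere. The rows with most reads, which were fitted, were listed under those other hairpins, let-7a-1 on chromosome 13 and let-7c-2 on chromosome 15. The totals were nearly the same under both hairpins: 3865254 and 3860357 reads for let-7a-5p, and 2721447 and 2705978 for let-7c-5p. let-7e-5p, whose hairpin lies between those of miR-99b and miR-125a, changed by −0.0028 in the Pkd1 line and 0.11 in the Pkd2 line. The 3 miRNAs with the same or a similar seed, miR-351-5p, miR-10a-5p and miR-10b-5p, were not called in either line (0 of 3 at an unadjusted p of 0.05 as well), with log2 fold changes of −0.43, 0.86 and 0.89 in the Pkd1 line. The 2 miR-10 changes were similar in size to that of miR-99a-5p, which was called there at 0.86, so the lack of a call does not mean a smaller change. let-7e-5p per read of miR-99b-5p was 0.208, 0.198 and 0.198 at P1 and 0.0976, 0.0857 and 0.123 at P7 in the Pkd1 line, and 0.199, 0.222 and 0.166 at P1 and 0.116, 0.138 and 0.154 at P7 in the Pkd2 line. The 2 family members of that cluster, as miR-125a-5p to miR-99b-5p, had a mean log2 difference of 0.07 (exact two-sided permutation p = 0.575). The summed reads of miR-99a-5p, miR-99b-5p and miR-100-5p against those of miR-125a-5p and miR-125b-5p differed by 0.01 (exact two-sided permutation p = 0.975).

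miR-100-5p rose relative to miR-99a-5p, the miRNA it differs from by 1 base. The ratio was 1.07, 0.777 and 0.934 at P1 and 1.72, 1.97 and 1.62 at P7 in the Pkd1 line. The Pkd2 line had ratios of 0.623, 0.714 and 0.794 at P1 and 1.17, 1.09 and 1.04 at P7. The geometric means went from 0.921 to 1.76 and from 0.707 to 1.10, a mean log2 difference of 0.79, and miR-100-5p passed from the lower to the higher of the pair in both lines. The ratio of miR-99a-5p to miR-99b-5p, which are in different clusters, differed by −0.09 (exact two-sided permutation p = 0.465).

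**Figure D3:**
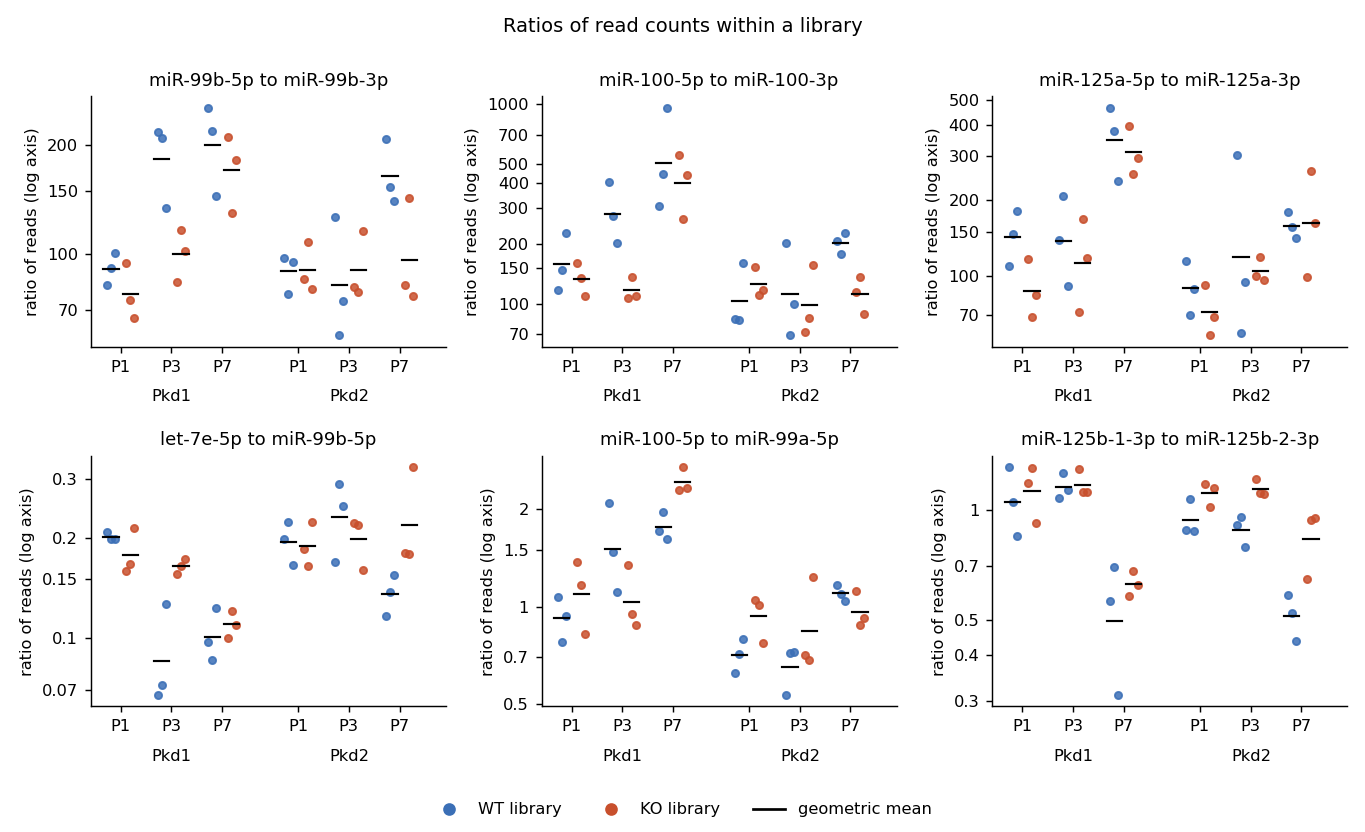
Ratios of reads within a library are plotted on log axes for the 6 ratios that differed between WT at P7 and WT at P1, with WT in blue, KO in red and the geometric mean of 3 libraries as a line. The WT points at P7 lie apart from the WT points at P1 in every panel and both models, such as 140.0 to 254 against 77.6 to 101 for miR-99b-5p to miR-99b-3p.

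The share of miR-10 reads was set beside these values inside groups. The same counts were not made over all miRNAs, so they have no background. In 12 groups of 3 libraries, the library with the highest miR-10 share held the highest level of miR-99a-5p in 8 groups, of miR-125a-5p in 8, of miR-125b-5p in 6, of miR-99b-5p in 4, of miR-100-5p in 3 and of miR-99b-3p in 0, and it held the lowest level of miR-99b-3p in 8. The same library held the highest ratio of miR-125a-5p to miR-125a-3p in 8 groups and of miR-99b-5p to miR-99b-3p in 7. It held the lowest ratio of miR-100-5p to miR-99a-5p in 7 groups and of let-7e-5p to miR-99b-5p in 6. For miR-100-5p to miR-100-3p it held the highest in 4 and the lowest in 2. For miR-125b-1-3p to miR-125b-2-3p it held each in 3. In Pkd1_P3_KO replicate 2, with a miR-10 share of 79.8% against 31.4 and 40.6% in its group, miR-125a-5p was at 1936 CPM against 1510.3 and 1633. In Pkd2_P3_WT replicate 1, with a share of 71.9% against 37 and 38.5%, miR-125a-5p was at 4781 CPM against 1659.6 and 2149 and miR-125b-5p at 1061 CPM against 459 and 527. With that share as a covariate, an alternative added after the data were seen, 4 of 6 miRNAs were called in the Pkd2 line in place of 2, while calls among all miRNAs there also went up, from 28.3 to 42.4%. In the Pkd1 line 5 of 6 were called with the covariate, against 33.7% of all miRNAs. The part of the miR-10 share in the change with age was not tested further.

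**Figure D4:**
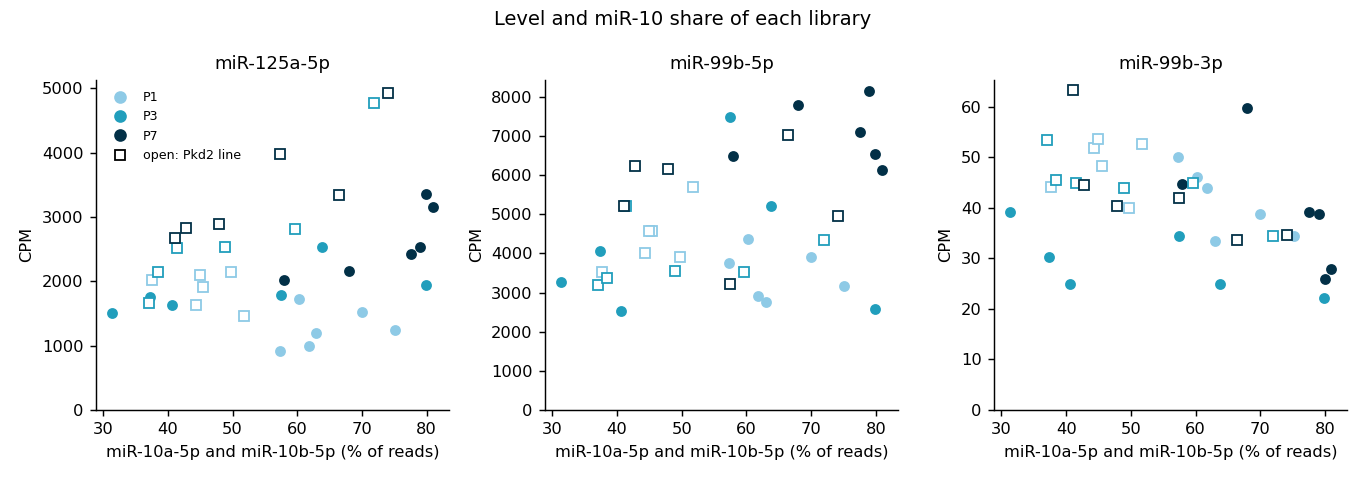
The CPM of miR-125a-5p, miR-99b-5p and miR-99b-3p in each library is plotted against the percent of its reads that were miR-10a-5p or miR-10b-5p, shaded by age, with filled circles for the Pkd1 line and open squares for the Pkd2 line. The highest miR-125a-5p points of the Pkd2 line, 4781 and 4935 CPM, lie at shares above 70%, and its next highest, 3985 CPM, lies at 57.4%. In the Pkd1 line the highest miR-125a-5p point, 3357 CPM, lies at 79.9%, and the lowest miR-99b-3p point, 22.1 CPM, near 80%. Levels are not compared between the lines.

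KO kidneys were then compared with WT kidneys of the same age, which asks whether the families changed with loss of Pkd1 or Pkd2 in the collecting duct. These comparisons share WT libraries with the comparison of ages. By edgeR 0 of 6 miRNAs passed the adjusted threshold in any of the 6 comparisons. Of all miRNAs tested in the Pkd1 model, the share called was 0% at P1, 0% at P3 and 0.425% at P7. For the Pkd2 model it was 0%, 0% and 12.6%. At an unadjusted p of 0.05 the counts in the Pkd1 model were 0 of 6 at P1 (8.36% of all miRNAs), 2 of 6 at P3 (9.07%) and 0 of 6 at P7 (10.2%). In the Pkd2 model they were 0 of 6 at P1 (5.5%), 0 of 6 at P3 (1.47%) and 1 of 6 at P7 (29%). DESeq2 called 1 of 6, miR-99b-5p in the Pkd1 model at P3, and none of the 6 in the other comparisons. Of all miRNAs DESeq2 called 1.27%, 1.27% and 2.41% in the Pkd1 model and 0%, 0% and 21% in the Pkd2 model, in the order of the ages. In the same order, KO and WT libraries did not overlap for 19.8%, 11.9% and 16.3% of all miRNAs and for 13.5%, 4.69% and 25.2%, which is the background for each lack of overlap given below.

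The 2 miRNAs in question at P3 in the Pkd1 model were miR-99b-5p and miR-100-5p. miR-99b-5p held 7480.2, 5213 and 4061 CPM in WT and 3272, 2581 and 2530.3 CPM in KO, with every KO library below every WT library. The log2 fold change was −1.0 ± 0.21 (SE, n = 3 and 3), 2.0-fold lower, with unadjusted p = 0.000288 and adjusted p = 0.202 by edgeR, and adjusted p = 0.00212 by DESeq2. miR-100-5p held 468, 288 and 188 CPM in WT and 223, 163 and 136 CPM in KO, where the highest KO library overlapped the lowest WT library (log2 fold change −0.85 ± 0.26, unadjusted p = 0.00538 and adjusted p = 0.380 by edgeR). Leaving out 1 library moved these values both ways. Without Pkd1_P3_WT replicate 1 they shrank to −0.73 for miR-99b-5p and −0.45 for miR-100-5p (edgeR adjusted p = 0.713 for both). Without Pkd1_P3_WT replicate 3 both were called, at −1.26 (edgeR adjusted p = 0.00775) and −1.2 (edgeR adjusted p = 0.0242), and without Pkd1_P3_KO replicate 1 miR-99b-5p was called (−1.13, edgeR adjusted p = 0.0449). These 2 fits called 0.435% and 1.02% of all miRNAs, and the other 4 such fits called neither miRNA.

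The other 4 miRNAs were closer between genotypes there. miR-99a-5p was at 223, 196 and 169.7 CPM in WT and 166, 173 and 155 CPM in KO, and miR-99b-3p at 34.4, 24.8 and 30.3 CPM in WT and 39.1, 22.1 and 24.8 CPM in KO. miR-125a-5p and miR-125b-5p changed by −0.26 ± 0.25 and −0.30 ± 0.24. The miR-99b-5p to miR-99b-3p ratio was 218, 210.2 and 134 in WT and 83.7, 117 and 102 in KO at P3 of the Pkd1 model, while its geometric means in the Pkd2 model were 82.4 in WT and 90.5 in KO. let-7e-5p per read of miR-99b-5p was 0.0675, 0.0725 and 0.127 in WT and 0.156, 0.165 and 0.173 in KO there. Over both models no ratio at P3 passed the adjusted threshold, and the KO range of the first, 83.7 to 117, overlapped that of Pkd1-line WT at P1.

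Beside these values, 3 of 3 erythroid markers had an unadjusted p under 0.05 at P3 in the Pkd1 model, with summed levels of 1093 to 1252 CPM in WT and 1313 to 3605 CPM in KO. So did 3 of 3 adrenal and endocrine markers, at 16.8 to 23.6 CPM in WT and 37.8 to 419 CPM in KO, although 1 of them had no reads in any of these WT libraries. Of the 4 kidney tubule miRNAs 0 of 4 did, and of all miRNAs 9.07% did. The miR-10 share ran from 37.3 to 63.8% in WT and from 31.4 to 79.8% in KO. The part of these measures in the values of miR-99b-5p and miR-100-5p was not tested.

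In the Pkd2 model at P3 the log2 fold changes of both miRNAs were above 0. miR-99b-5p held 4351, 3186 and 3372 CPM in WT and 3562, 3534 and 5206 CPM in KO (log2 fold change 0.17 ± 0.22), and miR-100-5p held 234, 176 and 191 CPM in WT and 214, 211 and 342 CPM in KO (0.35 ± 0.22). The groups overlapped for both. The difference in KO effect at P3, Pkd1 minus Pkd2, was −1.22 ± 0.31 for miR-99b-5p and −1.25 ± 0.35 for miR-100-5p, with unadjusted p = 0.000563 and 0.00125 but adjusted p = 0.407 for both by edgeR. Of the 6 miRNAs 0 of 6 passed by adjusted p (0% of all miRNAs) and 2 of 6 by unadjusted p (5.03%). Over the 12 fits that leave out 1 library the difference ran from −1.41 to −1.02 for miR-99b-5p and from −1.52 to −0.94 for miR-100-5p. Both passed in 1 of the 12, without Pkd1_P3_WT replicate 3 (edgeR adjusted p = 0.0384, with 0.26% of all miRNAs called), and neither in the other 11.

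At P7 the sign of the miR-99b-5p difference was opposite in the 2 models. In the Pkd1 model it held 6555, 6129 and 6490.3 CPM in WT and 8161, 7795 and 7114 CPM in KO, all KO libraries being higher (log2 fold change 0.27 ± 0.21, unadjusted p = 0.227 by edgeR). In the Pkd2 model it held 7025, 6157 and 6234 CPM in WT and 5209.6, 4967 and 3207 CPM in KO, all KO libraries being lower (−0.54 ± 0.22, unadjusted p = 0.0276 and adjusted p = 0.113 by edgeR). The difference between the models, 0.80 ± 0.31, had an unadjusted p of 0.0155 and an adjusted p of 0.371 by edgeR. By adjusted p 0 of 6 miRNAs passed this test (0.387% of all miRNAs) and by unadjusted p 1 of 6 (12%).

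The miR-100-5p differences at P7 had the same sign as those of miR-99b-5p in each model. It held 579.9, 553 and 506 CPM in WT and 653, 619 and 607 CPM in KO of the Pkd1 model (0.20 ± 0.26), without overlap. In the Pkd2 model it held 461, 422 and 407 CPM in WT and 423, 318 and 241 CPM in KO (−0.39 ± 0.22), with overlap. miR-99a-5p was at 395, 386 and 392 CPM in WT and 379, 363 and 260.4 CPM in KO of the Pkd2 model (−0.23 ± 0.21), without overlap.

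The log2 fold changes of the miR-125 miRNAs were above 0 in the Pkd2 model at P7. miR-125a-5p held 3341, 2890.2 and 2834 CPM in WT and 2672, 4935 and 3985 CPM in KO (0.35 ± 0.31), and miR-125b-5p held 826, 696 and 642 CPM in WT and 784, 939 and 869 CPM in KO (0.26 ± 0.25). The groups overlapped for both. In the same comparison 3 of 4 kidney tubule miRNAs were called lower and 2 of 5 epithelial markers higher, with 12.6% of all miRNAs called. Summed tubule levels were 93483 to 98928 CPM in WT and 49991 to 99180 CPM in KO. Summed epithelial levels overlapped, at 7409 to 8220 CPM in WT and 7361 to 7741 CPM in KO. Of the erythroid markers 3 of 3 had an unadjusted p under 0.05, against 29% of all miRNAs (2620 to 3266 CPM in WT, 4276 to 6773 CPM in KO). The miR-10 share ran from 42.8 to 66.4% in WT and from 41.1 to 74.1% in KO. The part of these measures in the values of the 6 miRNAs was not tested.

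At P1 in the Pkd1 model the miR-99b-3p levels of KO, at 46, 50 and 43.8 CPM, all exceeded the WT libraries at 33.4, 34.5 and 38.8 CPM (log2 fold change 0.39 ± 0.26, unadjusted p = 0.149 by edgeR). In the Pkd2 model at P1 every miRNA overlapped between genotypes, with log2 fold changes from −0.07 to 0.33. The KO effect at P1 did not differ between the models for any of the 6, by adjusted p (0% of all miRNAs) or unadjusted p (6.32%). A test of whether the KO effect varied over the 3 ages called 0 of 6 miRNAs in the Pkd1 model (0.142% of all miRNAs), with 2 of 6 at an unadjusted p of 0.05 (15.3%). These were miR-99b-5p (unadjusted p = 0.00113, adjusted p = 0.126 by edgeR) and miR-100-5p (unadjusted p = 0.0103, adjusted p = 0.275 by edgeR). DESeq2 called miR-99b-5p in this test (adjusted p = 0.00758, with 3.12% of all miRNAs called), as did edgeR without Pkd1_P3_WT replicate 3 (adjusted p = 0.0259, with 0.435% called). In the Pkd2 model 0 of 6 were called (0.402%), and 0 of 6 at an unadjusted p of 0.05 (11.5%).

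**Figure D5:**
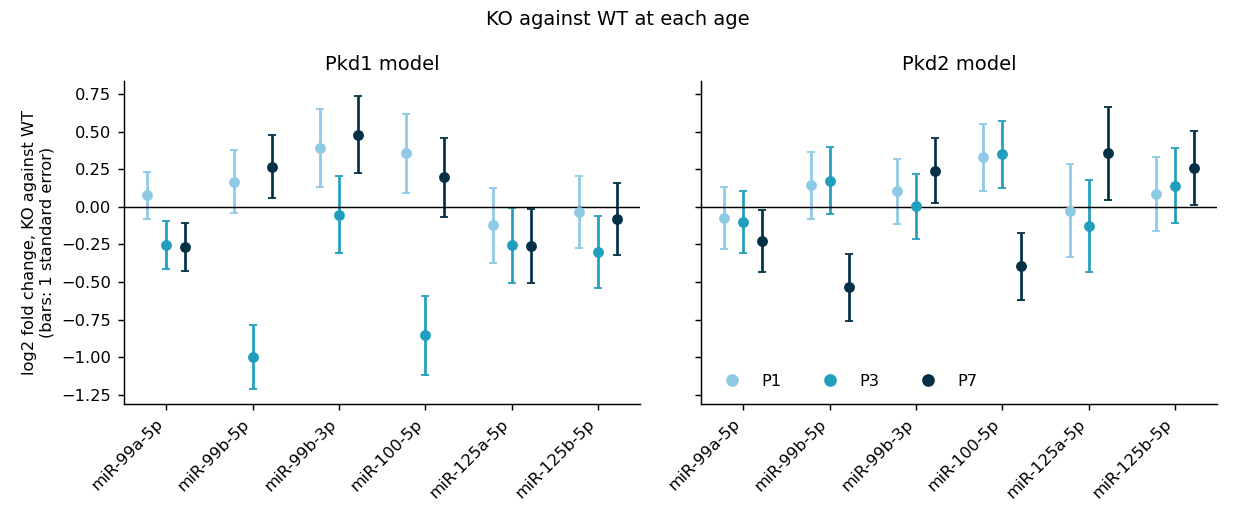
The log2 fold change of KO against WT is plotted for each miRNA at P1, P3 and P7, shaded by age, with bars of 1 SE, for the Pkd1 model on the left and the Pkd2 model on the right. The lowest points are miR-99b-5p at −1.0 and miR-100-5p at −0.85 at P3 of the Pkd1 model, and neither passed an adjusted p of 0.05 by edgeR.

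The 11 ratios within a library were compared between KO and WT in the same way at each age, over both models, and 0 of 33 passed an adjusted p of 0.05, the smallest adjusted p being 0.351 by the exact two-sided permutation test. After adjustment over 33 tests, a single ratio at the smallest p that this permutation test allows could not have passed. The test takes the mean over the models, so opposite differences in the models cancel. At unadjusted p the counts were 0 of 11 at P1, 1 of 11 at P3 and 2 of 11 at P7. The ratio of miR-125b-1-3p to miR-125b-2-3p was higher in KO by 0.20 on the log2 scale at P3 and by 0.52 at P7 (exact two-sided permutation p = 0.035 for each). By model these differences were 0.023 in Pkd1 and 0.37 in Pkd2 at P3, and 0.34 and 0.71 at P7, with no overlap of genotypes in the Pkd2 model only. let-7e-5p to miR-99b-5p was higher by 0.41 at P7 (exact two-sided permutation p = 0.035), from 0.12 in Pkd1 and 0.69 in Pkd2, and by 0.26 without Pkd2_P7_KO replicate 3. The ratio of miR-99a-5p to miR-99b-5p at P7 was 0.0515, 0.0458 and 0.0482 in WT and 0.0349, 0.0294 and 0.0366 in KO of the Pkd1 model, and 0.0562, 0.0627 and 0.0628 in WT and 0.0728, 0.0731 and 0.0812 in KO of the Pkd2 model. KO libraries thus lay below WT in the first and above WT in the second.

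Over the 6 groups of each model, the order of mean levels put a P7 group highest for 5 of the 6 miRNAs in both models. Few neighbours in that order were apart: of the 5 steps from the lowest to the highest group, the libraries of adjacent groups did not overlap in 2 steps for miR-100-5p and in 1 step for miR-99a-5p and miR-99b-5p in the Pkd1 model, and in 1 step for miR-99a-5p, miR-99b-5p and miR-125a-5p in the Pkd2 model. In either model no step was free of overlap for miR-99b-3p or miR-125b-5p. The means of miR-99b-5p ran from 2795 CPM in KO at P3 to 7690.2 CPM in KO at P7 in the Pkd1 model, and from 3636 CPM in WT at P3 to 6472 CPM in WT at P7 in the Pkd2 model.

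The miRNAs with the most similar pattern were found by Pearson's r over the 12 group means of log2 CPM, among 689 miRNAs, as a description of groups that share model and age. For this the 36 libraries were scaled together, so differences in level between the models also enter r. miR-99a-5p was closest to miR-99a-3p, its own opposite strand (r = 0.92), and to miR-101a-3p (r = 0.92). miR-100-5p was closest to miR-199b-5p (r = 0.93) and miR-378d (r = 0.91), and miR-99b-5p to miR-501-3p and miR-199b-5p (r = 0.87 for each). miR-125a-5p was closest to miR-21b (r = 0.93) and miR-181a-5p (r = 0.91), and miR-125b-5p to miR-199a-5p (r = 0.91) and miR-677-5p (r = 0.89). miR-99b-3p was closest to let-7i-5p (r = 0.95) and miR-344-3p (r = 0.89). Among the 6 miRNAs the most alike were miR-99b-5p and miR-100-5p, which share a seed but not a cluster (r = 0.95), followed by miR-125a-5p and miR-125b-5p (r = 0.92), whereas miR-99b-5p and miR-99b-3p of 1 hairpin had r = 0.41.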

How the data were processed

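Small RNA of mouse kidney was sequenced in 36 libraries by the authors, who removed the 3′ adaptor, kept reads over 17 bases and counted them with miRDeep2 (version not given in the sources used here) against mm10 and miRBase 21. The submitters' processing notes also name CASAVA 1.8.2 and HTSeq. The deposited values are raw read counts for each mature miRNA and hairpin (2061 rows). Where several hairpins list a miRNA, its row with most reads was taken, and 0 columns lacked a sample.

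miRNAs with at least 10 reads in at least 3 libraries were kept (706 for Pkd1, 746 for Pkd2 and 775 where both were fitted together). edgeR 4.0.16 with limma 3.58.1 in R 4.3.3 was used with TMM factors and a quasi-likelihood F-test, with 1 term per group over the 18 libraries of a model and Benjamini-Hochberg adjustment. Standard errors (SE) of log2 fold changes were obtained from the F statistic. DESeq2 1.42.0, other scalings, no filter, a replicate block and fits without each library were the alternatives. Ratios were compared by an exact two-sided permutation of libraries within models. Fits were tested on simulated data. Intervals cover counting error only, since reads carried no molecular identifiers.

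The 6 miRNAs, their hairpin neighbours, the opposite strands, the related seeds and the marker lists were chosen with earlier results of these data known. The miRNAs named are the 6, those lists, and the 2 of most similar pattern for each of the 6.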

Additional observations from a re-analysis of the deposited data

Results flagged for a closer look

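Opposite directions in the 2 models, with no overlap between WT and KO libraries in either, were found for 1 of the 6 miRNAs and 1 of the 11 ratios at P7. Among all 695 miRNAs tested in both models 6 did so, 0.863%. For mmu-miR-99b-5p the log2 fold change of KO against WT was 0.27 for Pkd1 and −0.54 for Pkd2. The difference of the 2 effects was 0.80 ± 0.31, with unadjusted p = 0.0155 and adjusted p = 0.371 by edgeR's quasi-likelihood test. For the ratio of miR-99a-5p to miR-99b-5p reads, the log2 difference of KO against WT was −0.53 for Pkd1 and 0.32 for Pkd2, and the difference between the models was not tested. The ratio holds miR-99b-5p, so the 2 are not independent of each other.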

How the results depend on the processing

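Depth did not limit the 6 miRNAs, each with at least 183 reads in a library, whereas miR-100-3p, with 9 to 106 reads, limits its ratio.

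For WT at P7 against P1 in the Pkd1 line, 5 of 6 miRNAs were called, and 4 or 5 in 7 of the 9 alternatives that keep all libraries of the groups. The count was 0 with library totals alone, 2 with totals without miR-10a-5p and miR-10b-5p, and 4 to 5 with 1 library left out. In the Pkd2 line (2 of 6 called) it was 3 with RLE factors and with DESeq2, 0 with library totals alone, 1 without a filter on low counts, 1 with the replicate block, 4 when the share of miR-10 reads was a covariate (added after the data were seen), 4 with the 6 compared libraries only, and 1 with any of the 6 libraries left out. With library totals alone the Pkd2-line changes reversed for miR-99a-5p (−0.16), miR-99b-5p (−0.10), miR-125a-5p (−0.052) and miR-125b-5p (−0.35), and with totals without miR-10 for miR-125b-5p (−0.14), where the median of all miRNAs was −0.78 and −0.60. The change of miR-99b-3p in the Pkd1 line ran from −0.44 to 0.035 with 1 library left out.

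For KO against WT at P3 in the Pkd1 model the count was 1 with DESeq2 and 0 to 2 with 1 library left out. For the KO effect across ages in that model it was 1 with DESeq2 and 0 to 1, and for the KO effect at P3 between models 0 to 2, with 1 library left out. The other KO comparisons called 0 of 6 in each alternative.

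With the replicate block in the exact permutation test (64 arrangements), 0 of the 11 WT ratios passed (p = 0.0312, the smallest it allows, adjusted p = 0.0573). With 1 library left out 6 to 7 passed, the miR-99a-5p to miR-99a-3p difference ran from −0.015 to 0.15, and that of the summed families from −0.11 to 0.069. Same-numbered libraries correlated from −0.489 to 0.456 over 8 comparisons, not over 0.1 in each pair of any, and at most 3 of 6 correlated best with their own number, so the numbers were not read as a pairing. The causes of the other changes were not tested.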
